A study of Mus musculus with 28 samples.

Results

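A set of 10 transcription factors tied to the maturation of intestinal enterocytes was followed across organoids exposed to single ligands of the Tgfb superfamily. They were the nuclear receptors Hnf4a, Hnf4g, Ppara, Ppard and Pparg, the membrane-bound factor Creb3l3, the leucine zipper factor Maf, the zinc finger repressor Prdm1, and the Kruppel-like factors Klf4 and Klf5. The members were chosen by gene name, and all 10 names were found among the 29413 genes of the BMP experiment and again among the 55416 genes of the TGFb experiment. Organoids are epithelial cultures grown in a gel from intestinal crypts. All organoid samples were wild-type C57BL/6 small intestinal epithelium, seeded in ENR medium without any BMP or Tgfb. In the BMP experiment 4 samples were left untreated, 4 received recombinant BMP2, and BMP3, BMP4, BMP5 and BMP7 were added to 3 samples each. The TGFb experiment comprised 3 untreated controls and 3 samples given recombinant Tgfb. Every ligand was used at 500 ng/ml for 24 h. The age of the donor mice is not given in the sources used here. Such organoids contain no mesenchyme, nerves or lumen contents, which limits them as a model of the villus. Nothing in the labels says that replicates came from separate mice or cultures, so the p-values measure the spread between these samples, which may be technical.

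Enterocytes leave the crypt, differentiate on the villus side and change their gene programme again as they approach the villus tip. HNF4 factors bind the enhancers of brush border, lipid and transporter genes in enterocytes, and HNF4A and HNF4G can partly stand in for each other. PPAR factors bind DNA with RXR partners and, when fatty acids or related ligands bind them, raise genes of fatty acid oxidation and storage. BMP and Tgfb ligands act through receptor kinases and SMAD proteins, and BMP signalling is known to be highest towards the villus tip.

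The BMP samples held 21357021 to 24781068 reads assigned to genes, recovered from the deposited values. Their values are given as normalized counts, that is, reads divided by 1 size factor per sample, and a single read equalled 0.826 to 1.28 normalized counts depending on the sample. The other experiment is in TPM, for which the depth is unknown, and levels were never compared between the 2 experiments. All 6 epithelial markers were present in every organoid sample, with summed levels of 115180 to 129800 normalized counts in the controls. All 6 were called higher with BMP2, BMP4, BMP5 and BMP7, where they summed to 666800 to 853400, 249100 to 357200, 210600 to 358200 and 259200 to 373700. With BMP2 the 3 stem cell markers summed to 92.9 to 607 normalized counts, against 89348 to 113445 in the controls, and with BMP4 to 1563 to 3284. The mesenchymal markers Dcn and Lum were not listed in the BMP experiment, and the 5 other mesenchymal markers summed to at most 55.4 normalized counts in any sample. In bulk RNA, fewer cells of a type and less RNA per cell cannot be told apart. Scaling mattered for direction: with every sample scaled to the same total, 3627 genes rose and 7783 fell with BMP2, against 5420 and 5657 with the authors' size factors, and with BMP4 the counts were 3100 and 6864 against 4964 and 4633. That scaling moved the median log2 change of all genes to -0.48 with BMP2 and -0.35 with BMP4, from -0.03 and 0.04.

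BMP4 raised all 10 factors, whereas BMP2 raised 6 and lowered 2 of them. A change was called when the adjusted p of limma, a linear model fitted over all tested genes, was below 0.05. With BMP4 all 10 members were higher, where 33.7% of the 14746 tested genes were called higher, 31.4% lower and 65.1% in either direction. With BMP2 Pparg, Creb3l3, Maf, Prdm1, Klf4 and Klf5 were higher and Hnf4g and Ppara lower, where 75.1% of all tested genes were called, 36.8% higher and 38.4% lower. With BMP7 Pparg, Maf, Prdm1, Klf4 and Klf5 rose and Hnf4g and Ppara fell, so that 7 of 10 members were called against 32.4% of all genes (19.2% higher and 13.2% lower). With BMP5 Pparg, Prdm1 and Klf5 rose and Hnf4g and Ppara fell, 5 of 10 members against 26.3% of all genes (16.5% higher and 9.87% lower). With BMP3 no member was called, and 0% of all genes were called by limma. No member reached an unadjusted p under 0.05 with BMP3 either, the 10 log2 changes lay between -0.30 and 0.08, and DESeq2 called 1 gene of the whole table, which was no member. The markers of cell types moved with these groups. The 6 enterocyte markers summed to 292400 to 377740 normalized counts with BMP4, where 5 rose, and to 20774 to 39701 with BMP2, where 3 fell and 1 rose, against 47190 to 82200 in the controls. With BMP5 3 of them fell and with BMP7 4 fell. All 4 Paneth cell markers fell with BMP2, to a sum of 33560 to 89580 from 90480 to 111670. The part of these shifts in the results on the factors was not tested. An F-test of differences among the 5 ligands called all 10 members, with adjusted p up to 0.00105 for Ppard, where 84.1% of all genes were called.

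**Figure D1:**
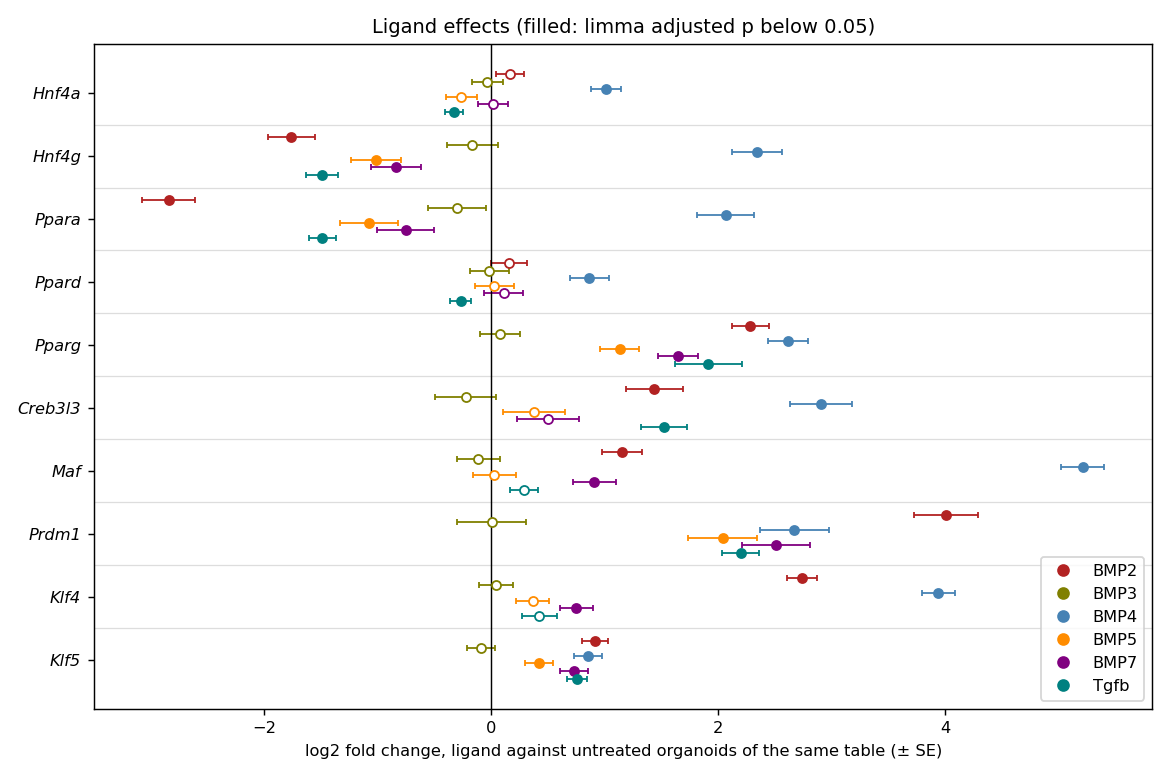
Log2 fold change (x axis, on the log2(value + 1) scale, bars ± SE) of each of the 10 factors (rows) under each ligand against the untreated samples of the same experiment; filled points passed an adjusted p of 0.05. BMP4 lies to the right of 0 in every row, Hnf4g and Ppara lie to the left of 0 with BMP2, BMP5, BMP7 and Tgfb, and BMP3 stays between -0.30 and 0.08.

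Hnf4a (ENSMUSG00000017950), the HNF4 factor known from liver and gut, rose with BMP4 and was called with no other BMP ligand in the main fit, which used no pairs. The controls held 16700, 17400, 16700 and 18900 normalized counts, the BMP4 samples 32100, 32200 and 41600, and the BMP2 samples 15300, 20200, 18700 and 25500. The BMP4 samples lay above every control, whereas the BMP2 samples spread on both sides of the controls. The log2 change with BMP4 was 1.01 ± 0.13 (SE, adjusted p = 2.43e-06, limma), and 0.39 after quantile normalization (adjusted p = 0.0130). With BMP2 the log2 change was 0.17 ± 0.12 (adjusted p = 0.217, limma), and this sign depends on scaling, since with samples at the same total it was -0.29 (adjusted p = 0.0189) and after quantile normalization -0.43 (adjusted p = 0.00398). Without BMP2 replicate II it was 0.29 (adjusted p = 0.0282, limma). The BMP5 samples, at 14000, 14300 and 15300 normalized counts, lay below all controls, with a log2 change of -0.26 ± 0.13 (adjusted p = 0.164, limma). With the replicate number as a block that difference passed (log2 change -0.28, adjusted p = 0.0283, limma).

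Hnf4g (ENSMUSG00000017688), the paralog whose expression is largely confined to gut epithelium and a few other tissues, moved in opposite directions with BMP4 and with the other active ligands. It stood at 1880, 1810, 2890 and 2880 normalized counts in the controls and at 12200, 10600 and 12400 with BMP4. With BMP2 it stood at 597, 687, 574 and 915 normalized counts. None of the BMP2 samples reached the lowest control, and all BMP4 samples exceeded the highest, so the 3 groups did not overlap. The rise with BMP4 was 5.07-fold (log2 change 2.34 ± 0.22 SE, adjusted p = 4.26e-08, limma). Levels fell by 1.76 on the log2 scale with BMP2 (SE 0.21, adjusted p = 3.01e-07, limma). Smaller falls, to 847 to 1410 normalized counts with BMP5 and 1170 to 1560 with BMP7, also passed (log2 changes -1.01 and -0.84, adjusted p = 0.00229 and 0.00755, limma).

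Ppara (ENSMUSG00000022383), the PPAR that raises fatty acid oxidation genes, had the same order of groups. The controls held 365, 462, 654 and 619 normalized counts, the BMP2 samples 44.3, 70.3, 85.9 and 92.4, and the BMP4 samples 2090, 2050 and 2300. Every BMP2 sample lay far below the lowest control and every BMP4 sample far above the highest. With BMP2 the log2 change was -2.84 ± 0.24 (SE, adjusted p = 2.52e-09, limma), and with BMP4 it was 2.07 ± 0.25 (adjusted p = 1.03e-06, limma). Between BMP2 and BMP4 Ppara thus differed by -4.91 on the log2 scale (BMP2 minus BMP4), a 30.0-fold difference. With BMP5 the level fell by 1.07 on the log2 scale (adjusted p = 0.00404, limma) and with BMP7 by 0.75 (adjusted p = 0.0297, limma). The BMP7 call rested on single samples: adjusted p was 0.0842 without control replicate IV, 0.0813 without control replicate VI and 0.162 without BMP7 replicate II.

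Ppard (ENSMUSG00000002250), a widely expressed PPAR, was called with BMP4 and with no other BMP ligand. Its controls held 901 to 1000 normalized counts and its BMP4 samples 1700, 1570 and 2030. The 3 BMP4 samples were the highest of the experiment. The log2 change was 0.87 ± 0.17 (SE, adjusted p = 0.000206, limma). The BMP2 samples ran from 745 to 1360 normalized counts around the controls (log2 change 0.15, adjusted p = 0.386, limma), and without BMP2 replicate II the log2 change was 0.33 (adjusted p = 0.0353, limma).

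Pparg (ENSMUSG00000000440), known as the adipocyte PPAR and also expressed in gut epithelium, was higher with all 4 of BMP2, BMP4, BMP5 and BMP7. The controls held 578, 461, 420 and 557 normalized counts, while BMP2 gave 1850, 2530, 2630 and 2850 and BMP4 gave 2680, 2820 and 3820. BMP7 gave 1560, 1410 and 1760 and BMP5 gave 844, 1200 and 1300. In each of these groups the lowest sample exceeded the highest control. BMP4 gave the highest fold, 6.13, ahead of BMP2 at 4.86, BMP7 at 3.14 and BMP5 at 2.19, with adjusted p of at most 0.000104 (limma). The adipocyte markers Adipoq and Lep were not listed, and Plin1 reached at most 6.21 normalized counts, in a control sample. The part of such cells in the Pparg result was not tested.

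**Figure D2:**
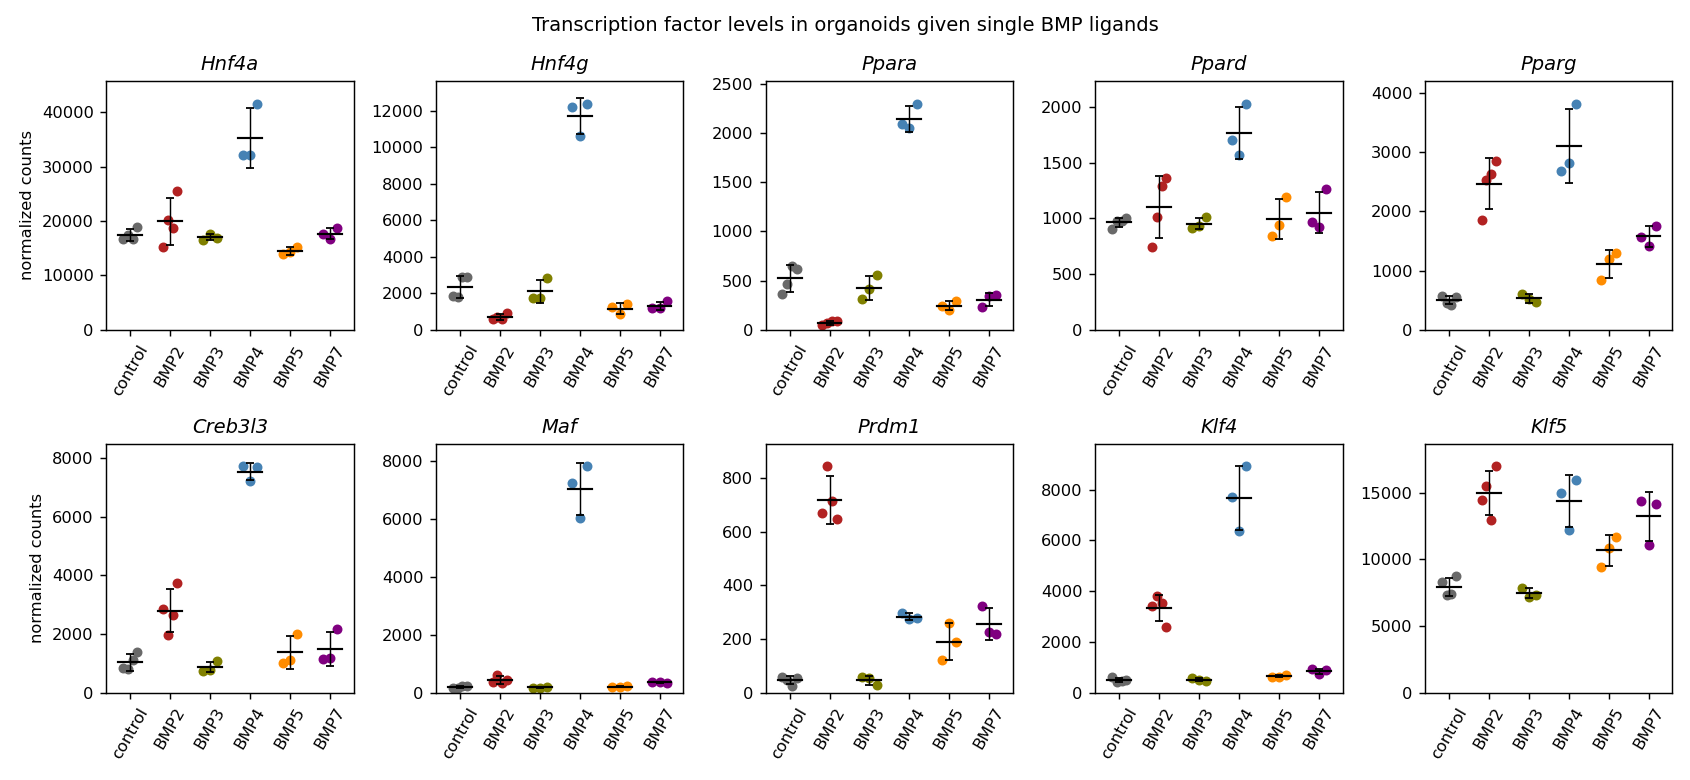
Normalized counts (y axis, linear, from 0, a separate scale for each gene) of the 10 factors in the 20 samples of the BMP experiment; each point is 1 sample, and the bar and whiskers are the mean ± SD of 3 or 4 samples. Hnf4g and Ppara are lowest with BMP2 and highest with BMP4, Maf stands apart with BMP4 at 6040 to 7820, and Prdm1 is highest with BMP2 at 645 to 843.

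Creb3l3 (ENSMUSG00000035041) encodes a factor of the endoplasmic reticulum membrane that is released by cleavage and is known for apolipoprotein genes in liver and gut. It rose from 822, 806, 1100 and 1400 normalized counts in the controls to 7730, 7220 and 7700 with BMP4 and to 2840, 1960, 2650 and 3730 with BMP2. Both treated groups lay above all controls, and the BMP4 group lay above the BMP2 group. The log2 change was 2.91 ± 0.27 (SE, adjusted p = 3.21e-08, limma) with BMP4 and 1.44 ± 0.25 (adjusted p = 3.92e-05, limma) with BMP2. With BMP5 and BMP7 the samples ran from 1000 to 2010 and from 1140 to 2160 and overlapped the controls. Those log2 changes, 0.38 and 0.50, missed the threshold (adjusted p = 0.333 and 0.165, limma) and passed with the replicate number as a block (adjusted p = 0.0454 and 0.0104, limma).

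Maf (ENSMUSG00000055435), a large MAF factor linked to nutrient uptake genes in enterocytes, had the largest change of the 10 with BMP4. The controls held 151, 158, 217 and 240 normalized counts and the BMP4 samples 7240, 6040 and 7820. The BMP2 samples held 366, 606, 321 and 437 and the BMP7 samples 372, 359 and 331, also above every control. The BMP4 level was 37.1-fold that of the controls (log2 change 5.21 ± 0.19 SE, adjusted p = 5.62e-13, limma). The changes with BMP2 and BMP7 were 2.23-fold and 1.88-fold (adjusted p = 8.65e-06 and 0.00122, limma), and with BMP5 the level was within the range of the controls, at 175 to 211. Maf is also known in mesenchymal and immune cells. The mesenchymal markers summed to 1.19 to 26.3 normalized counts with BMP4 and 5.33 to 39.9 in the controls. The 5 immune markers summed to 24.0 to 54.5 and 24.8 to 46.3. The part of such cells in the Maf result was not tested.

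Prdm1 (ENSMUSG00000038151), which encodes BLIMP1, a repressor that holds the neonatal enterocyte programme before weaning, responded most to BMP2. The controls held 58.6, 46.5, 24.0 and 53.7 normalized counts and the BMP2 samples 670, 843, 712 and 645. BMP4 gave 297, 273 and 276, BMP7 gave 323, 226 and 218, and BMP5 gave 122, 261 and 187. All samples of these 4 groups lay above every control, and the BMP2 samples lay above all others. The log2 change was 4.01 ± 0.28 (SE) for BMP2, 2.67 ± 0.30 for BMP4, 2.51 ± 0.30 for BMP7 and 2.04 ± 0.30 for BMP5, all with adjusted p of at most 6.61e-05 (limma). BMP2 exceeded BMP4 by 1.34 on the log2 scale (adjusted p = 0.000737, limma), and Prdm1 was the sole member called higher with BMP2 than with BMP4. PRDM1 is known in lymphocytes and macrophages too. The immune markers summed to 48.2 to 112 normalized counts with BMP2, above the 24.8 to 46.3 of the controls. Cd68, the only immune marker with enough reads to be tested, was higher with BMP2. Their part in the Prdm1 result was not tested.

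Klf4 (ENSMUSG00000003032), a factor of differentiated epithelial and goblet cells known to restrain division, rose with BMP2, BMP4 and BMP7. The controls held 608, 432, 452 and 501 normalized counts, the BMP2 samples 3410, 3790, 3530 and 2600, and the BMP4 samples 7710, 6380 and 8920. The BMP7 samples held 917, 719 and 873. These 3 groups stood above the controls without overlap and in separate ranges. The folds were 6.67 with BMP2, 15.4 with BMP4 and 1.68 with BMP7 (adjusted p = 2.85e-12, 6.49e-13 and 0.000651, limma). The BMP5 samples, at 613, 621 and 681, also lay above the highest control, by a small margin, with a log2 change of 0.37 (adjusted p = 0.0722, limma), and without control replicate II it was 0.47 (adjusted p = 0.0267, limma). Among the 6 goblet cell markers, 4 rose with BMP4, where they summed to 85449 to 140928 normalized counts against 19589 to 35985 in the controls. With BMP2 3 goblet markers rose and 2 fell. The part of goblet cells in the Klf4 result was not tested.

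Klf5 (ENSMUSG00000005148), known to sustain the dividing cells of the crypt, rose with BMP2, BMP4, BMP5 and BMP7. The controls held 8290, 7330, 7430 and 8750 normalized counts, BMP2 gave 14500, 15500, 13000 and 17000, and BMP4 gave 15000, 12200 and 16000. BMP7 gave 14400, 11100 and 14200 and BMP5 9430, 10900 and 11700. All of these samples lay above the highest control. The log2 change was 0.91 for BMP2, 0.85 for BMP4, 0.73 for BMP7 and 0.42 for BMP5, with SE of 0.11 or 0.12 and adjusted p of at most 0.0154 (limma). After quantile normalization the BMP2 change was 0.26 (adjusted p = 0.0178) and the BMP4 change 0.22 (adjusted p = 0.0569, limma). The BMP5 change missed the threshold without BMP5 replicate III (adjusted p = 0.0611) or VI (adjusted p = 0.0903, limma). The 3 cycling cell markers moved the other way with BMP2 and BMP4, summing to 348 to 1152 and 5415 to 8141 normalized counts against 18460 to 27970 in the controls. None of these markers was called with BMP5 or BMP7, where Klf5 rose too and they summed to 12370 to 25860 and 12680 to 26810. The part of dividing cells in the Klf5 result was not tested.

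The promoters of Ppara, Prdm1 and Klf4 are shown as examples of 3 responses to BMP2 and BMP4: Ppara fell with BMP2 and rose with BMP4, Prdm1 was highest with BMP2, and Klf4 rose with both and was highest with BMP4. The sequences are the 250 bases before the start site, 5′ to 3′ on the gene's strand, from RefSeq on GRCm38.p6, which is not the build of the deposited tables. Capitals mark 2 SMAD-type motifs, each searched on both strands. The first is CAGAC. The second is its GC-rich counterpart GGCGCC, which reads the same on both strands. The marked motifs do not overlap. Ppara lies on the forward strand at chr15:85735526-85735775, Prdm1 on the reverse strand at chr10:44458749-44458998 and Klf4 on the reverse strand at chr4:55532476-55532725.
Ppara: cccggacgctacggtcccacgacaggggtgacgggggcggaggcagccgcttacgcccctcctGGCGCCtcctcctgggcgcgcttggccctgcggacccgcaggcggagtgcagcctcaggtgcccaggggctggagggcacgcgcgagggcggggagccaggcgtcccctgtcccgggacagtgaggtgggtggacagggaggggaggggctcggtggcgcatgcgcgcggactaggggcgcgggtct
Prdm1: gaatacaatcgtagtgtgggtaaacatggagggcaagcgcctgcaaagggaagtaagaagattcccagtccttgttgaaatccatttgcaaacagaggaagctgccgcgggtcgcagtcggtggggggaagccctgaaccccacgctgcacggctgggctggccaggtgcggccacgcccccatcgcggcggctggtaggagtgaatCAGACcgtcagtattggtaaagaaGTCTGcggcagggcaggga
Klf4: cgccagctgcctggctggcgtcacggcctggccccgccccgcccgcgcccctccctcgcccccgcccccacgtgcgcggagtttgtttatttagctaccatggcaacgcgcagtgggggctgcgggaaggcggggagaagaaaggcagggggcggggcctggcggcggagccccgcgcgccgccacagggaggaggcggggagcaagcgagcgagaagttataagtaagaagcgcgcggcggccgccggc
In this window Prdm1 held the first motif at 2 places, Ppara held the second at 1 place, and Klf4 held neither. The table matched 7 of the 10 members by symbol, with 11 start sites in all. The first motif was found in 5 of these 11 windows and in 42.2% of the 32851 promoter windows of the same length, and the second in 3 of 11 and in 9.59%. The nuclear receptor motif AGGTCA was found on either strand in 3 of 11 windows against 14.0%. The KLF-type motif CACCC was found on either strand in 7 of 11 against 52.0%. A match is a description of the letters and not a site of binding.

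BMP2 and BMP4 are closely related ligands, and the test of their difference called 8 of 10 members, where 66.8% of all tested genes were called, 33.4% in each direction. Prdm1 was higher with BMP2, and Hnf4a, Hnf4g, Ppara, Ppard, Creb3l3, Maf and Klf4 were lower. The differences were 17.2-fold for Hnf4g, 30.0-fold for Ppara and 16.6-fold for Maf, and between 1.64-fold and 2.77-fold for Hnf4a, Ppard, Creb3l3 and Klf4. Pparg and Klf5 were not called, with log2 differences (BMP2 minus BMP4) of -0.33 ± 0.18 (SE, adjusted p = 0.103, limma) and 0.06 ± 0.12 (adjusted p = 0.678). For Pparg the difference passed with samples at the same total (-0.39, adjusted p = 0.0313).

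For BMP5 against BMP7 none of these factors passed the adjusted threshold. No member was called by limma, where 2 genes, or 0.0136% of those tested, were called. The 4 members Pparg, Maf, Klf4 and Klf5, had an unadjusted p under 0.05, and each was higher with BMP7 than with BMP5. All 10 log2 differences (BMP5 minus BMP7) were below 0, from -0.88 to -0.08. Comparing samples with the same replicate number, 6 members (Hnf4a, Pparg, Creb3l3, Maf, Klf4 and Klf5) were higher with BMP7 in all 3 pairs. The median log2 difference was -0.31 over the 10 members and -0.01 over all tested genes. The shares of all genes with an unadjusted p under 0.05, or higher with BMP7 in all 3 pairs, were not counted. Those member counts are therefore descriptions and cannot be called particular to these factors. With the replicate number as a block no member was called, the lowest adjusted p being 0.256 for Maf (limma). Maf differed most, by 0.88 on the log2 scale (SE 0.20, adjusted p = 0.360, limma), with 331 to 372 normalized counts with BMP7 and 175 to 211 with BMP5. DESeq2 on the recovered reads called Maf (adjusted p = 0.0226) and no other member.

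The order of the groups was not the same for all members. BMP4 stood highest for Hnf4a, Hnf4g, Ppara, Ppard, Creb3l3, Maf and Klf4, in each case called against the next group. For Pparg BMP4 was followed by BMP2 without a called difference. For Klf5 BMP2, BMP4, BMP7 and BMP5 followed each other without a called difference between neighbours. Further apart in that order, BMP2 and BMP4 were each called above BMP5 (adjusted p = 0.00185 and 0.00859, limma). BMP2 was the lowest group for Hnf4g and Ppara, each called below BMP5, the next group (adjusted p = 0.00675 and 7.34e-06, limma). The untreated samples and BMP3 were neighbours in the order of all 10 members and were not called different.

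Ratios of related factors within a sample hardly depend on the scaling of that sample. The Hnf4g to Hnf4a ratio was 0.104 to 0.173 in the controls, 0.0307 to 0.0391 with BMP2 and 0.298 to 0.380 with BMP4. The Ppara to Ppard ratio was 0.406 to 0.669 in the controls, 0.0607 to 0.0705 with BMP2 and 1.13 to 1.31 with BMP4. Neither ratio overlapped between these groups. The Klf4 to Klf5 ratio was 0.0574 to 0.0735 in the controls, 0.153 to 0.272 with BMP2 and 0.514 to 0.558 with BMP4, whereas BMP5 (0.0571 to 0.0651) and BMP7 (0.0615 to 0.0649) stayed within or beside the range of the controls. For each of these 3 ratios, BMP2 and BMP4 each gave an exact two-sided permutation p of 0.0286 against the controls, the smallest that these numbers of samples can give, and 0.0643 after adjustment over the 18 ratio tests, so none passed.

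**Figure D3:**
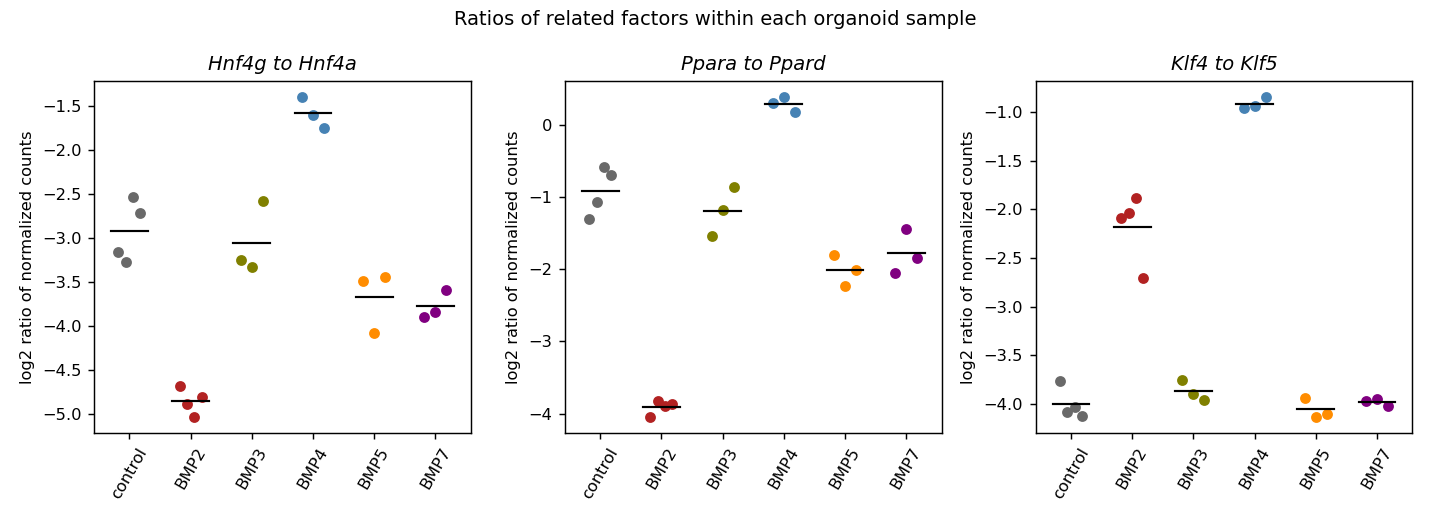
Log2 ratio of normalized counts (y axis) of 3 pairs of related factors within each sample of the BMP experiment; points are samples and bars are group means. For all 3 pairs the BMP4 samples lie above the controls, while the BMP2 samples lie below the controls for Hnf4g to Hnf4a and Ppara to Ppard and above them for Klf4 to Klf5.

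Genes known as HNF4 targets in enterocytes rose with BMP4 in all but 1 case. Of 20 tested, 19 rose and 0 fell with BMP4, with a median log2 change of 2.41 against 0.04 over all genes, and with BMP2 8 rose and 8 fell (median -0.03, against -0.03 over all genes). With BMP5 4 rose and 6 fell, and with BMP3 none was called. Of all tested genes 33.7% rose and 31.4% fell with BMP4, and 36.8% rose and 38.4% fell with BMP2. With BMP5 these shares were 16.5% and 9.87%. This list includes the enterocyte markers Alpi, Fabp1, Fabp2, Apoa1 and Anpep and the epithelial marker Vil1, so it partly repeats the marker shifts given above. Fabp2, a fatty acid binding protein of the enterocyte, went from 2570 to 5010 normalized counts in the controls to 42600 to 46600 with BMP4, and stood at 2970 to 4010 with BMP2. Slc5a1, the sodium-coupled glucose transporter of the brush border, fell to 245 to 809 normalized counts with BMP2 from 7040 to 10700 and rose to 27900 to 44200 with BMP4. Anpep, a brush border peptidase, fell by 4.35 on the log2 scale with BMP2 (adjusted p = 7.41e-11, limma) and had a log2 change of 0.67 with BMP4 (adjusted p = 0.0597).

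PPAR targets of fatty acid oxidation and lipid handling behaved alike with BMP4, where 18 of 20 tested rose and 0 fell (median 1.76). With BMP2 9 rose and 7 fell, a split that became 4 and 11 with samples at the same total. Of all tested genes 33.7% rose and 31.4% fell with BMP4, and 36.8% rose and 38.4% fell with BMP2. Acot1, a thioesterase of acyl-CoA, fell from 774 to 941 normalized counts in the controls to 12.9 to 46.8 with BMP2 and stood at 816 to 1210 with BMP4. Cyp4a10, a fatty acid hydroxylase, stood at 4.96 to 7.98 normalized counts in the controls and at 49.1 to 199 with BMP4. It passed the filter on low values only through the BMP4 samples, so its place among the 18 is a description. Among 5 tested CREB3L3 targets, all 5 rose with BMP4, and 2 rose and 1 fell with BMP2. Cidec, a lipid droplet protein, rose with BMP2 to 875 to 1400 normalized counts and with BMP4 to 1100 to 1180 from 100 to 135. Apoc3, an apolipoprotein of triglyceride-rich particles, rose by 2.34 with BMP4 and fell by 0.97 with BMP2 on the log2 scale (adjusted p = 6.73e-05 and 0.0294, limma), and its fall with BMP2 missed the threshold without BMP2 replicates II, III or IV or control replicates III or VI, where the list held 0 falling genes.

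Partners and relatives of the factors were tested as lists of their own. Of all tested genes 75.1% were called with BMP2, 36.8% higher and 38.4% lower. With BMP4 65.1% were called, 33.7% higher and 31.4% lower. Counts near these shares are descriptions and cannot be called particular to a list. Of 18 tested partners and coregulators, 12 rose and 4 fell with BMP4 and 8 rose and 5 fell with BMP2, the latter becoming 6 and 10 with samples at the same total. Creb3l1, a relative of Creb3l3, fell from 632 to 786 normalized counts to 63.9 to 93.7 with BMP2 and 264 to 296 with BMP4. Of 11 other KLF genes tested, 10 rose and 1 fell with BMP2 and 5 rose and 1 fell with BMP4, and with samples at the same total the counts were 7 and 1, and 2 and 3. The falling gene with BMP4 was joined by another, making 2, without BMP4 replicate VI or control replicate II. Klf6 rose from 1920 to 5980 normalized counts to 33600 to 52500 with BMP2, and Klf9 from 554 to 644 to 1590 to 1700. Klf15 was at no more than 1 read in any BMP2 sample and at least 8.22-fold lower than in the controls, taking 3 reads per library as the floor.

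**Figure D4:**
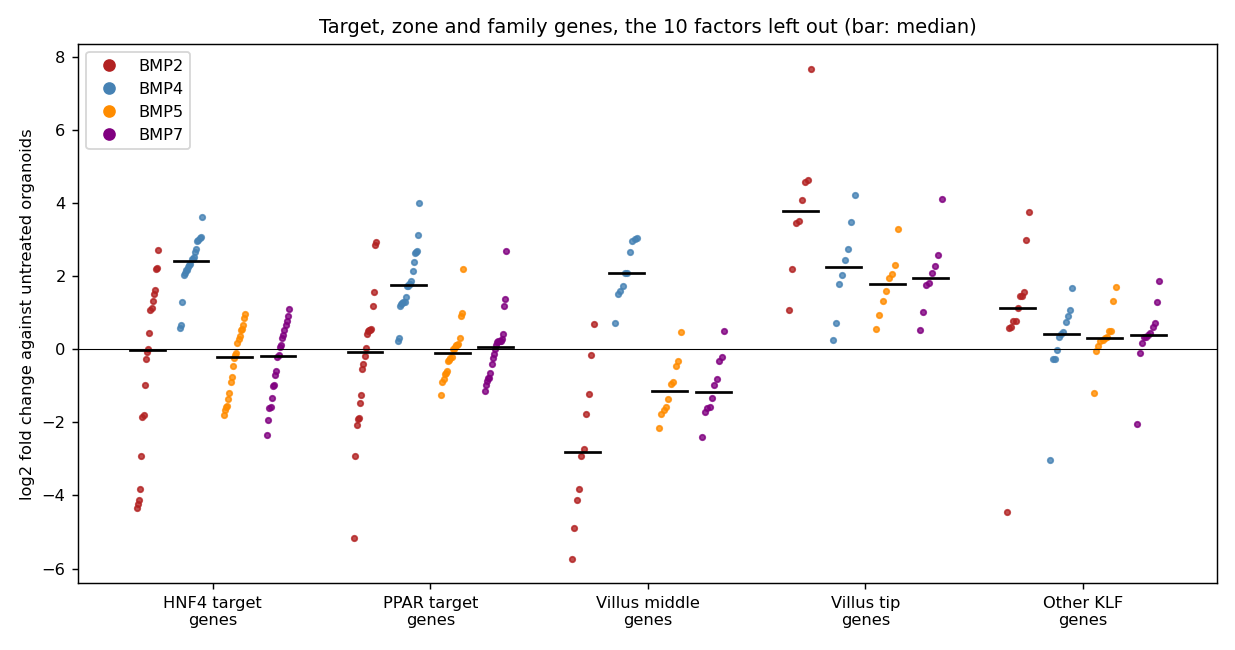
Log2 fold change against untreated organoids (y axis) of the tested genes of 5 gene lists, the 10 factors left out, for BMP2, BMP4, BMP5 and BMP7; points are genes and bars are list medians, and the BMP2 points of Klf15, Slc5a11 and Cyp4a10 are fitted values from at most 3 reads per sample. The median of the villus middle genes is -2.82 with BMP2 and 2.09 with BMP4, and the median of the villus tip genes is above 0 with all 4 ligands.

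Genes known from the villus middle and from the villus tip were also tested. Of all tested genes 36.8% rose and 38.4% fell with BMP2, and 33.7% rose and 31.4% fell with BMP4. With BMP5 these shares were 16.5% and 9.87%, and with BMP7 19.2% and 13.2%. Of 10 villus middle genes, 8 fell and 1 rose with BMP2, 9 rose and 0 fell with BMP4, 5 fell and 0 rose with BMP5, and 6 fell and 1 rose with BMP7. The 1 rising gene with BMP7 was not called in 12 of the 20 fits that left out 1 sample. Slc2a2, a glucose and fructose transporter, went from 544 to 1400 normalized counts in the controls to 35.8 to 159 with BMP2 and 4770 to 8690 with BMP4. The fructose transporter Slc2a5 went from 964 to 1790 to 24.7 to 63.3 with BMP2 and 3130 to 6700 with BMP4. Slc5a11, a sodium-coupled inositol transporter, had at most 2 reads in any BMP2 sample, at least 24.6-fold lower than the controls. Of 8 villus tip genes beside the members Klf4 and Creb3l3, 8 rose under BMP4, 7 under BMP2, 7 under BMP7 and 6 under BMP5, and none fell, except 1 with BMP4 after quantile normalization. Nt5e, an enzyme that makes adenosine, rose from 9.13 to 27.5 normalized counts to 2050 to 8100 with BMP2 and 240 to 546 with BMP4. Egfr, the receptor of epidermal growth factor, rose to 18100 to 26800 normalized counts with BMP2 and 1960 to 2710 with BMP4 from 1170 to 1510. Several genes are in more than 1 list or are also cell type markers, so these counts are not independent of each other or of the marker shifts.

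The enterocyte genes that PRDM1 separates into neonatal and adult sets and the cell cycle genes tied to KLF4 and KLF5 were tested too. Of all tested genes 75.1% were called with BMP2, 36.8% higher and 38.4% lower. With BMP4 65.1% were called, 33.7% higher and 31.4% lower. The counts of these short lists are descriptions beside such shares. Of 7 genes of the PRDM1 list, 5 fell and 2 rose with BMP2 and 5 rose and 2 fell with BMP4. The 2 falling genes became 1 without BMP4 replicate II or III or control replicate II, III or VI, and 0 without BMP4 replicate VI. Lct, the lactase gene of suckling animals, went from 104 to 392 normalized counts to 7810 to 11400 with BMP4 and 22.7 to 151 with BMP2. Sis, the sucrase gene of adult enterocytes, moved the same way, from 16200 to 37500 to 56900 to 96600 with BMP4 and 1280 to 2320 with BMP2, as did Arg2, an arginase, at 883 to 2110, 7810 to 9060 and 29.4 to 121. In the list of 7 KLF4 and KLF5 targets, 4 fell and 2 rose with BMP2 and 5 fell and 2 rose with BMP4. The 2 rising genes with BMP2 became 1 without BMP2 replicate II or VI or control replicate II or III. Cdkn1a, the inhibitor of cyclin-dependent kinases, rose from 1170 to 1900 normalized counts to 11400 to 13800 with BMP2 and 8380 to 10800 with BMP4. Ccnd1, a cyclin of the start of the cycle, fell from 3940 to 4260 to 495 to 949 with BMP2 and 1480 to 2110 with BMP4, and Ccnb1, a cyclin of mitosis, fell from 1970 to 2830 to 21.7 to 142 and 687 to 1080.

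With Tgfb 8 of the 10 factors were called in its own experiment, where 56.7% of 12959 tested genes were called, 27.4% higher and 29.3% lower. Pparg, Creb3l3, Prdm1 and Klf5 rose, and Hnf4a, Hnf4g, Ppara and Ppard fell. Prdm1 passed the filter on low values only through the Tgfb samples, so its place among the 8 is a description and no support for the count. Hnf4g was at 63.5, 61.8 and 76.8 TPM in the controls and at 21.5, 20.6 and 28.1 TPM with Tgfb. Ppara was at 12.9, 11.9 and 15.4 TPM and at 4.35, 3.65 and 4.35 TPM. Neither gene overlapped between the groups, and the log2 change of both was -1.49 (adjusted p = 0.000249 and 0.000115, limma). Adding 1 before the log shrinks the change of Ppara more, since its TPM was lower, so these equal values are not equal falls. Hnf4a fell from 303, 334 and 306 TPM to 233, 250 and 268 TPM, also without overlap. Its log2 change was -0.33 (adjusted p = 0.0134, limma) and missed the threshold without control replicate II (adjusted p = 0.0535). Ppard stood at 28.0, 30.1 and 28.9 TPM and at 22.2, 22.6 and 27.0 TPM, a log2 change of -0.27 whose adjusted p of 0.0438 (limma) rose to between 0.0716 and 0.127 in 5 of the 6 fits that left out 1 sample.

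The 4 factors that rose with Tgfb did so without overlap with the controls. The share of all genes without overlap was not counted, so this is a description and not particular to them. Pparg went from 7.34, 15.5 and 16.0 TPM to 40.4, 51.8 and 56.4 TPM (log2 change 1.91 ± 0.30 SE, adjusted p = 0.00200, limma). Creb3l3 went from 27.9, 25.4 and 36.2 TPM to 70.6, 82.4 and 113 TPM (log2 change 1.53, adjusted p = 0.00103, limma), and Klf5 from 120, 126 and 130 to 194, 211 and 237 TPM (log2 change 0.76, adjusted p = 0.000628). Prdm1 was at 0.252, 0.405 and 0.356 TPM in the controls and 5.80, 5.47 and 4.24 TPM with Tgfb. Its mean passed the filter of 1 TPM only through the Tgfb samples, so its call is a description, and its log2 change moved from 2.20 to 3.59 with a pseudocount of 0.1. Klf4 was not called (7.36, 7.72 and 9.88 against 9.84, 11.1 and 13.7 TPM, log2 change 0.43, adjusted p = 0.0525, limma), and without control replicate III or Tgfb replicate I it passed (adjusted p = 0.0290 and 0.0396). Maf lay above the controls in all 3 samples, at 3.09 to 3.66 against 2.41 to 2.94 TPM, with an adjusted p of 0.0815 (limma). Among the lists, 6 of 10 villus middle genes fell and 1 rose with Tgfb, and 8 of 8 villus tip genes rose. Of all tested genes 27.4% rose and 29.3% fell with Tgfb.

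**Figure D5:**
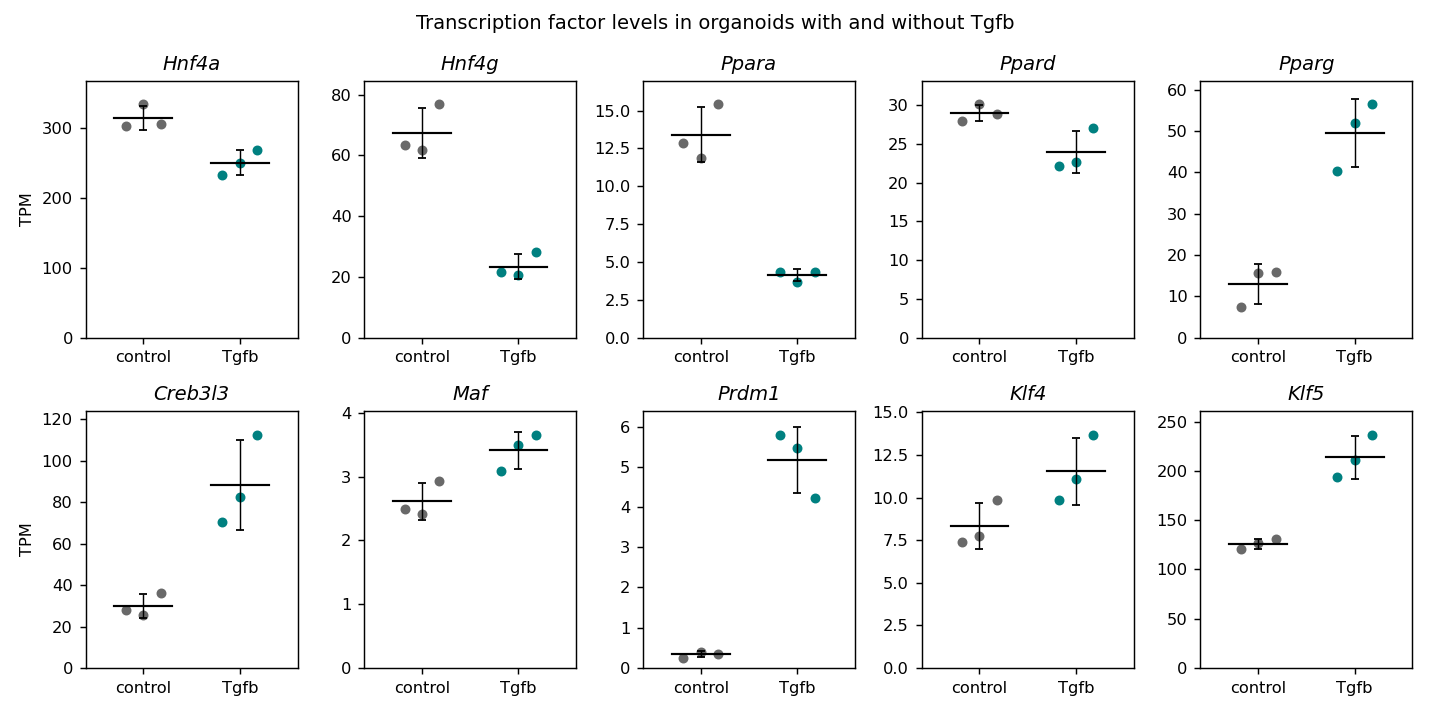
TPM (y axis, linear, from 0, a separate scale for each gene) of the 10 factors in 3 untreated and 3 Tgfb-treated samples; each point is 1 sample, with the mean ± SD. Hnf4g and Ppara lie lower with Tgfb and Pparg, Creb3l3, Prdm1 and Klf5 lie higher, each without overlap, whereas the Klf4 groups overlap.

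Genes whose pattern over the 5 BMP ligands came nearest to each member were found among 11855 genes by the root mean square difference of the 5 log2 changes, which share the same control samples. For Hnf4g they were Pdzd3, a scaffold protein, and Gpt, an alanine aminotransferase, with differences of 0.090 and 0.12. For Ppara they were Spink1, a trypsin inhibitor, and Shpk, at 0.19 and 0.20, and the nearest of the other members was Hnf4g at 0.50. Hnf4a was nearest to Lig4 and Cox11 (0.042 and 0.069), Ppard to Nedd4l and Sec24c (0.054 and 0.058), and Klf5 to Dclk1 and Aldh1l1 (0.073 and 0.097). For Pparg the nearest were Ncoa4 and Dok4 (0.24 and 0.24), for Creb3l3 Lrp1 and Pcyt1a (0.16 and 0.19), and for Prdm1 Eif4e3 and Mtmr11 (0.13 and 0.18). Klf4 and Maf had the most distant neighbours: Tbx3 and Slc26a2 at 0.41 and 0.43 for Klf4, and Gm2061 and Asah2 at 0.43 and 0.49 for Maf.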

How the data were processed

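Values for the BMP experiment were deposited by the authors as a signal, namely counts scaled by a size factor and rounded to 3 significant digits. This was read from the values, since dividing by each sample's step returned a whole read, to within 0.1, for 100% of the 180721 values of 20 reads or fewer. The TGFb values were deposited as TPM, since each column sums to 1000000. The mesenchymal values were taken as TPM too, but their column sums were not calculated. The submitters' processing notes name Trim Galore, Salmon, DESeq2 and GRCm39, without versions or roles. Libraries came from a KAPA mRNA kit and single-end NextSeq 500 runs, per the labels' protocols, and the run of a sample is not given in the sources used here, so runs cannot be told apart from groups.

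Groups came from the labels. The members and gene lists were chosen with earlier results of these data known. Testing was two-sided, with limma 3.58.1 (R 4.3.3) applied to values logged after adding 1. The 6 BMP groups shared 1 fit with an intensity trend. Tests covered the 14746 genes with a mean of at least 10 normalized counts and the 12959 genes with a mean of at least 1 TPM. All 10 members passed both filters, but Prdm1 passed that of 1 TPM only through the Tgfb samples. P-values were adjusted by Benjamini-Hochberg across every gene tested in the comparison, and called below 0.05. Folds are back-transformed from log2(value + 1), which shrinks the change of genes with few reads. Ratio tests were exact permutations of samples. Genes were named by a rule: the 10 members, in each list the gene with the smallest F-test p and those with the largest called rise and fall with BMP2, BMP4 or BMP7, and the 2 genes nearest to each member's pattern among those with a mean of at least 50; 1 gene that the rule names is not reported here. Floors of 3 reads per library cover counting error only. Deviations of samples with the same replicate number from their group means correlated at 0.158 to 0.553 for BMP3, BMP4, BMP5 and BMP7 with the controls. Samples with other numbers correlated at -0.421 to 0.0926, so these numbers were taken as pairs from the data. They were not for BMP2 (0.018 to 0.421, other numbers -0.245 to 0.133) and Tgfb (0.0040 to 0.070, other numbers -0.049 to 0.039). The main fits used no pairs, and the replicate block was run as an alternative only. Alternatives were other pseudocounts (0.1 and 5), filters and scalings, a replicate block, 2 groups alone, edgeR 4.0.16 and DESeq2 1.42.0 on the recovered reads, and leaving out each sample. The limma code was tested on simulated data.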

Additional observations from a re-analysis of the deposited data

How the results depend on the processing

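The counts of members called kept within 1.5 times their value under the alternatives run, with 1 exception: for BMP5 against BMP7 DESeq2 called 1 member, Maf, instead of 0. Over all alternatives the counts ran from 8 to 10 for BMP2, 9 to 10 for BMP4, 4 to 7 for BMP5, 6 to 8 for BMP7, 6 to 9 for Tgfb and 8 to 9 for BMP2 against BMP4. They stayed at 0 for BMP3 and at 10 for the F-test, which was not run with DESeq2 or on 2 groups alone. A change of sign with a call was seen for Hnf4a with BMP2 alone among the members, at -0.29 with samples at the same total and -0.43 after quantile normalization. Counting each member result under each alternative, a called difference missed the threshold in 14 cases and kept its call in 1540. A difference that was not called passed in 17 cases, the 2 sign changes of Hnf4a with BMP2 included, and changed sign without passing in 35. These cases include fits that left out a sample of neither group compared. There the log2 change stayed as it was and a call of a member seldom changed. An example is Klf4 with BMP5, which passed without BMP2 replicate VI (adjusted p = 0.0447, limma). The 1540 therefore overstates how stable the calls are.

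With the replicate number as a block, the members called were 8 for BMP2, 10 for BMP4, 7 for BMP5, 8 for BMP7 and 8 for Tgfb, Prdm1 among the last. The same fit called more of all genes too. Of the 14746 tested genes it called 11858 for BMP2, 10582 for BMP4, 5738 for BMP5 and 6689 for BMP7. Without the block these were 11077, 9597, 3884 and 4773. For Tgfb it called 7613 of 12959, against 7348. Beside the block values given above for Hnf4a and Creb3l3, the block changed 2 calls with Tgfb, where the numbers do not pair the samples: Klf4 passed (adjusted p = 0.00749, limma) and Ppard missed (adjusted p = 0.0501). It changed no other call of a member.

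Groups of 3 or 4 samples limit the ratio tests, whose smallest p is 0.0286, or 0.1 with Tgfb. Deposited values carry at most 3 digits. TPM keeps no depth, so no count test was run for Tgfb, and with a filter of 10 TPM Ppara, Maf, Prdm1 and Klf4 were not tested. DESeq2 called 24 genes of the whole table for BMP5 against BMP7, against 2 by limma and 4 by edgeR.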

Other observations

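Mesenchymal cells from the duodenum of PdgfraH2BeGFP mice were profiled as well, 1 sample fresh and 1 after immortalisation, with no replicate of either, so these values are listed without a test. Hnf4a and Hnf4g were listed at 0 TPM in both. Maf stood at 19.8 TPM in the fresh cells and 20.6 TPM in the immortalised cells, and Ppard at 17.1 and 13.5 TPM. Klf4 was at 6.15 and 17.4 TPM, Pparg at 5.74 and 3.09 TPM and Klf5 at 3.45 and 3.92 TPM. Ppara, Creb3l3 and Prdm1 lay below 1 TPM in both samples, at 0.611 and 0.195, 0.209 and 0.0252, and 0.212 and 0.0307 TPM.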
